A study of Mus musculus with 4 samples.

Results

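The 8 genes described here encode the enzymes that make and remove retinoic acid, and their transcripts were followed in otic vesicles of mouse embryos. They were taken by symbol from the gene-level table, and all 8 of the 8 listed enzymes were found among its 34866 genes. Of the group, 4 act in synthesis (Rdh10, Aldh1a1, Aldh1a2 and Aldh1a3) and 4 remove retinoic acid or its precursor (Cyp26a1, Cyp26b1, Cyp26c1 and Dhrs3). The tissue was the otic vesicle, the epithelial sac that becomes the inner ear, from C57/BL6 embryos on day 11.5 of development. Meis2 mutant embryos gave 2 libraries (KO 1 and KO 2) and wild-type embryos gave 2 (WT 1 and WT 2). Meis2 encodes a homeobox transcription factor. The labels describe neither the mutant allele, nor the cells in which the gene is lost, nor how many embryos made up a library. The p-values below thus reflect variation between single libraries, part of which may be technical.

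Retinoic acid is a small lipophilic signal made from vitamin A. Retinol is first oxidised to retinaldehyde, chiefly by RDH10 in the embryo, and DHRS3 carries out the reverse step. Retinaldehyde dehydrogenases of the ALDH1A family then make retinoic acid, which binds nuclear receptors (RARs with RXRs) on response elements in target genes. CYP26 cytochromes P450 oxidise retinoic acid to inactive products, so cells that express them act as sinks. In the developing ear, local synthesis and breakdown of retinoic acid are known to pattern the vesicle along its axes. Several genes of the pathway, among them Cyp26a1, Dhrs3 and Rarb, are themselves induced by retinoic acid.

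Values are TPM, transcript abundances scaled for transcript length and to the same total in each library, so levels can be set side by side between genes. TPM keeps no read depth, and no counting interval can be given. Across the libraries 20829 to 21685 genes were above 0. Markers of the otic epithelium were present in all 4 libraries: the 20 listed genes summed to 1561 TPM in KO 1, 1662 in KO 2, 2025 in WT 1 and 1880 in WT 2. The 15 listed genes of the surrounding periotic mesenchyme summed to 1516 TPM in KO 1, 1016 in KO 2, 1093 in WT 1 and 926 in WT 2. Transcripts of neighbouring cells were thus present, and in bulk RNA fewer cells of a type and less RNA per cell cannot be told apart. Libraries also differed in Y-linked transcripts, with Eif2s3y at 0 in KO 1, 58.1 in KO 2, 13.4 in WT 1 and 0.17 TPM in WT 2. Meis2 itself stood at 73.2 and 76.6 TPM in KO and at 79.0 and 88.7 TPM in WT, a gene-level value that cannot show whether part of the gene is missing.

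Cyp26a1 and Cyp26c1 lie next to each other on chromosome 19 in the same orientation, Cyp26c1 at 37685581 to 37693398 and Cyp26a1 at 37697798 to 37701536 (GRCm38), with 4399 bases between them. Aldh1a2 lies on chromosome 9 at 71215789 to 71296243. The bases just before these 3 genes are shown because Aldh1a2 and Cyp26c1 had the smallest p-values of the 8 and Cyp26a1 is the neighbour of Cyp26c1. The stretches are RefSeq promoter windows of GRCm38.p6, plus strand, printed up to the base before the annotated start; capitals mark matches to the motifs listed after them.
Aldh1a2 (chr9:71215539-71215788): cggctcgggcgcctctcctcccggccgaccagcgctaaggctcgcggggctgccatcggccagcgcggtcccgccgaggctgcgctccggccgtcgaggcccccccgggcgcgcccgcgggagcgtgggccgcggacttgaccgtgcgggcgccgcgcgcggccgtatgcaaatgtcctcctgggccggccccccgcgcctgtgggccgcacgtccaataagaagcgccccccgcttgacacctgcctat
Cyp26c1 (chr19:37685430-37685580): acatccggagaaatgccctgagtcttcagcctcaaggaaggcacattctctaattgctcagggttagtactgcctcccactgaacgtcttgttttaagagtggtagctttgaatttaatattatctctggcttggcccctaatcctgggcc
Cyp26a1 (chr19:37697558-37697797): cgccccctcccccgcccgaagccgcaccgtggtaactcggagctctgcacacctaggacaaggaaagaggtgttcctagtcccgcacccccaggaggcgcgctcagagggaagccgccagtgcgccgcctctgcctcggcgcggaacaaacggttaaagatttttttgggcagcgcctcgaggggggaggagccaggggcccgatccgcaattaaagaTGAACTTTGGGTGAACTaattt

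The motifs searched, on both strands, were the DR5 and DR2 retinoic acid response elements, the MEIS site TGACAG, the HOX-PBX site TGATNNAT and the TATA box TATAAA. No motif of the set is part of another, although matches may overlap. The capitals before Cyp26a1 are a DR5 element, the direct repeat with a 5-base spacer that RAR and RXR bind. It occupies 37697776 to 37697792 and reads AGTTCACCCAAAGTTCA on the minus strand. Among 32851 promoter windows of 300 bases, 32 (0.0974%) held a DR5 element. Of the 55 genes in the retinoid lists used here, 41 had a window and 2 held the element. The other was Rarb, the gene of retinoic acid receptor beta, with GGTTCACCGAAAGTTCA on its own strand at chromosome 14, 16575513 to 16575529. The MEIS site, which 19.2% of all windows held, had no match in the 3 stretches shown, and neither had the HOX-PBX site (8.85%), DR2 (0.268%) or the TATA box (13.6%). These shares are of windows of 300 bases, and the stretches shown are shorter. Windows were available for 6 of the 8 enzyme genes, 9 windows in all. Among them the MEIS site matched in both windows of Aldh1a1. It was TGACAG before the start at chromosome 19, 20492407 to 20492412. In the other window, which lies inside the annotated gene, it was CTGTCA, the same site on the other strand, at 20601980 to 20601985. That match lies past the start of its window's transcript. TATAAA matched in the window of Cyp26b1 and, past the start, in that of Cyp26a1. The Aldh1a2 stretch was the richest of the 3 in G and C, at 77.6% with 40 CpG dinucleotides in 250 bases, against 62.1% and 20 in 240 bases for Cyp26a1 and 47.0% and 2 in 151 bases for Cyp26c1.

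In the comparison of Meis2 mutant with wild-type vesicles, Aldh1a2, Cyp26c1 and Aldh1a1 stood lower in both KO libraries than in either WT library, and Aldh1a3 stood higher in both. No enzyme gene passed the threshold over all genes. With limma on log2(TPM + 1), fitted to the 14496 genes that averaged 1 TPM or more over the libraries, 0 genes had a Benjamini-Hochberg adjusted p under 0.05 (0%), and all 8 enzyme genes had an adjusted p of 1.00. At an unadjusted limma p under 0.05 there were 507 genes (3.5%), of which 2 were enzyme genes, Aldh1a2 and Cyp26c1. The libraries of the genotypes did not overlap for 4 of the 8 enzyme genes, against 29.8% of all genes tested. Of those 4, 3 were lower in KO, a pattern shown by 10.5% of all genes, and 1 was higher, as were 19.2% of all genes. All 8 enzyme genes passed the filter on low values. An exact two-sided permutation test, with 2 libraries a side, could reach no lower p than 0.333.

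**Figure D1:**
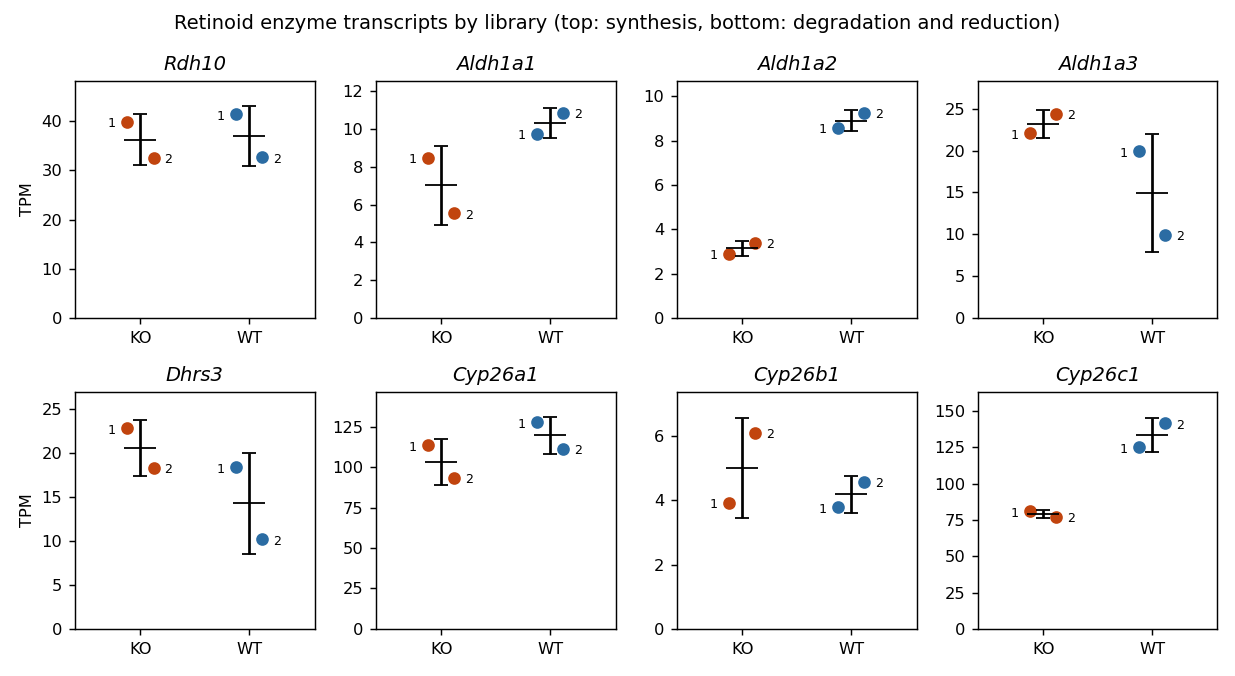
TPM of the 8 enzyme genes in each library, KO on the left and WT on the right of each panel; points are libraries with their replicate number, the horizontal tick is the mean and the bar the SD (n = 2). Aldh1a2 lies at 2.89 and 3.39 TPM in KO and at 8.56 and 9.24 TPM in WT, and Cyp26c1 shows a gap in the same direction.

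Among the synthesis enzymes, Rdh10 makes the retinaldehyde on which the other 3 act. Rdh10 (ENSMUSG00000025921.7, chromosome 1, 16105774 to 16133734) stood at 39.9 TPM in KO 1 and 32.6 in KO 2, and at 41.4 in WT 1 and 32.7 in WT 2. The 2 libraries numbered 1 were the high ones and the genotypes overlapped. The log2 difference, KO minus WT, was -0.03 (SE 0.16; 95% interval -0.45 to 0.40; limma adjusted p = 1.00), and it was positive without KO 2 (0.11) or without WT 1 (0.14). Summed neuron markers also split by number, but the other way, with 413 TPM in KO 1 and 1124 in KO 2 against 507 in WT 1 and 785 in WT 2. Summed markers of periotic mesenchyme, hindbrain and surface ectoderm were, like Rdh10, higher in the library numbered 1 of each genotype. The part of these cell types in the Rdh10 values was not tested.

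Aldh1a2 encodes RALDH2, the main retinoic acid synthesizing enzyme of early embryonic mesoderm. Aldh1a2 (ENSMUSG00000013584.5) stood at 2.89 TPM in KO 1 and 3.39 in KO 2, and at 8.56 in WT 1 and 9.24 in WT 2. Both KO libraries lay below both WT libraries, and the highest KO value was 0.396 of the lowest WT value. The means were 3.14 ± 0.35 TPM in KO and 8.90 ± 0.48 TPM in WT (SD, n = 2 each), a ratio of 0.353. On the log2(TPM + 1) scale, which understates changes of low genes, the difference was -1.26 (SE 0.15; 95% interval -1.67 to -0.85; limma unadjusted p = 0.00066, adjusted p = 1.00). This was the sixth smallest p of all genes tested. With a pseudocount of 0.1 TPM the difference was -1.48 and with 5 TPM it was -0.77. It lay between -1.35 and -1.17 when any 1 library was left out. Its transcript shares no stretch of 31 bases with any other gene of the GENCODE M21 transcripts, so reads of that length could not be split with a relative.

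Aldh1a3, which encodes RALDH3, a retinaldehyde dehydrogenase of sensory placodes and epithelia, was the most abundant of the 3 Aldh1a genes in every library apart from WT 2. Aldh1a3 (ENSMUSG00000015134.15, chromosome 7, 66390890 to 66427517) stood at 22.03 TPM in KO 1 and 24.4 in KO 2, and at 19.9 in WT 1 and 9.94 in WT 2. The genotypes did not overlap, but WT 1 lay close to KO 1 and WT 2 lay far below. Means were 23.2 ± 1.66 TPM in KO and 14.9 ± 7.04 TPM in WT (SD, n = 2 each). The log2 difference was 0.68 (SE 0.32; 95% interval -0.18 to 1.53; limma adjusted p = 1.00). It was 0.21 without WT 2 and 1.14 without WT 1, so its size rests on which WT library is used. Of its 4601 distinct 31-base stretches, 104 (2.26%) occurred in transcripts of other genes.

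Aldh1a1 encodes RALDH1, the retinaldehyde dehydrogenase best known from the dorsal retina. Aldh1a1 (ENSMUSG00000053279.7, chromosome 19, 20492715 to 20643465) stood at 8.49 TPM in KO 1 and 5.53 in KO 2, and at 9.73 in WT 1 and 10.9 in WT 2. The KO libraries lay below the WT libraries, KO 1 by little. The log2 difference was -0.52 (SE 0.22; 95% interval -1.10 to 0.06; limma adjusted p = 1.00), with -0.79 without KO 1 and -0.25 without KO 2. The adjacent gene Aldh1a7, a close relative of Aldh1a1, shares 281 stretches of 31 bases with it, 13.8% of those of Aldh1a7 and 5.70% of those of Aldh1a1, so reads can be split between them. Aldh1a7 stood at 5.49 and 3.28 TPM in KO and at 9.19 and 8.81 TPM in WT, with a log2 difference of -0.92 (SE 0.24; limma adjusted p = 1.00). Together the 2 genes summed to 14.0 and 8.82 TPM in KO and to 18.9 and 19.7 TPM in WT, which again did not overlap.

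Among the degrading enzymes, Cyp26c1 and Cyp26a1 were by far the most abundant of the 8 genes. Cyp26c1 (ENSMUSG00000062432.4) stood at 80.9 TPM in KO 1 and 77.1 in KO 2, and at 125 in WT 1 and 142 in WT 2. Both KO libraries lay well below both WT libraries. Means were 79.0 ± 2.69 TPM in KO and 133 ± 11.8 TPM in WT (SD, n = 2 each), a ratio of 0.593. The log2 difference was -0.74 (SE 0.089; 95% interval -0.98 to -0.51; limma unadjusted p = 0.00059, adjusted p = 1.00), the fifth smallest p of all genes tested. Leaving out any 1 library gave values from -0.83 to -0.66. Its only annotated transcript shares no 31-base stretch with another gene.

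Cyp26a1 (ENSMUSG00000024987.5), the gene with the DR5 element shown above, stood at 113 TPM in KO 1 and 93.3 in KO 2, and at 128 in WT 1 and 111 in WT 2. KO 1 lay above WT 2, so the genotypes overlapped. The log2 difference was -0.21 (SE 0.13; 95% interval -0.55 to 0.13; limma adjusted p = 1.00), and it lay between -0.35 without KO 1 and -0.07 without KO 2, with -0.31 without WT 2 and -0.11 without WT 1. The 2 neighbours thus stood in different proportion. Cyp26c1 was 0.713 of Cyp26a1 in KO 1 and 0.826 in KO 2, against 0.978 in WT 1 and 1.27 in WT 2, and these ratios did not overlap. Whether the 2 genes differ in their response was not tested.

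Cyp26b1 (ENSMUSG00000063415.12, chromosome 6, 84571414 to 84593908), whose enzyme clears retinoic acid from hindbrain, limb and gonad, was the lowest of the Cyp26 genes. Its values were 3.91 TPM in KO 1 and 6.09 in KO 2, and 3.78 in WT 1 and 4.57 in WT 2. Libraries numbered 2 were higher in each genotype, and the groups overlapped. The log2 difference was 0.19 (SE 0.24; 95% interval -0.44 to 0.83; limma adjusted p = 1.00) and turned to -0.072 without KO 2.

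Dhrs3, which returns retinaldehyde to retinol and so lowers the supply for synthesis, pointed the other way from Cyp26c1. Dhrs3 (ENSMUSG00000066026.14, chromosome 4, 144892827 to 144928209) stood at 22.8 TPM in KO 1 and 18.3 in KO 2, and at 18.4 in WT 1 and 10.2 in WT 2. KO 2 and WT 1 had nearly the same value, and WT 2 was the low library, as for Aldh1a3. The log2 difference was 0.54 (SE 0.29; 95% interval -0.23 to 1.32; limma adjusted p = 1.00), with 0.15 without WT 2 and 0.94 without WT 1. The order of its values over libraries, KO 1, WT 1, KO 2, WT 2, was that of the summed periotic mesenchyme markers given above. That order rests on the near tie of KO 2 and WT 1. Summed hindbrain markers ran KO 1, KO 2, WT 1, WT 2. The part of either list in the Dhrs3 values was not tested.

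**Figure D2:**
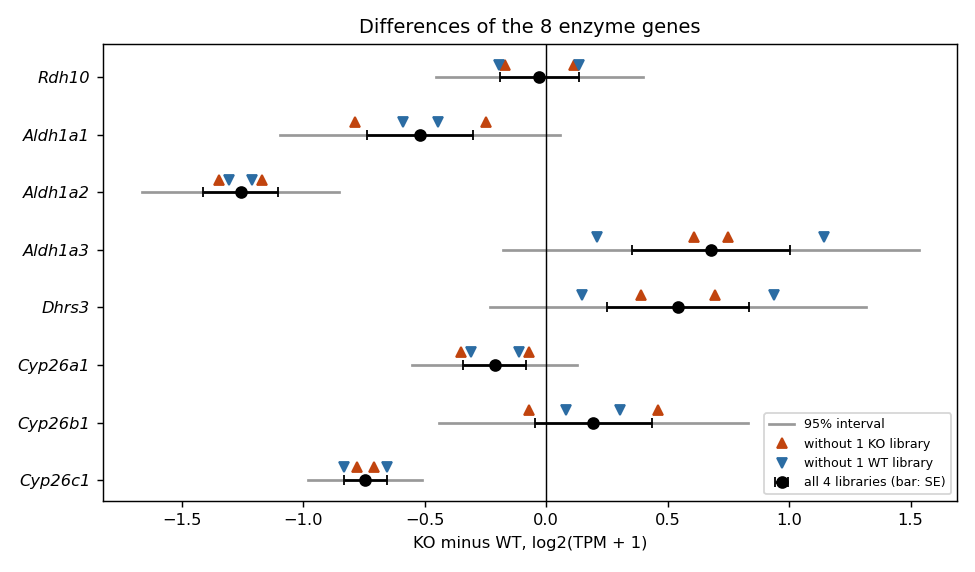
Log2 difference of each enzyme gene, KO minus WT, on the log2(TPM + 1) scale. Black points with bars are the fit of all 4 libraries with its SE, grey lines the 95% interval, and triangles the differences with 1 KO or 1 WT library left out. The intervals of Aldh1a2 (-1.67 to -0.85) and Cyp26c1 (-0.98 to -0.51) lie below 0, and the triangles of Aldh1a3 and Dhrs3 spread most between the 2 WT libraries.

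Ordered by mean level, the degrading enzymes Cyp26a1 (103 TPM) and Cyp26c1 (79.0 TPM) led in KO, followed by Rdh10 (36.3), Aldh1a3 (23.2), Dhrs3 (20.6), Aldh1a1 (7.01), then Cyp26b1 and last Aldh1a2 (3.14). In WT the order was Cyp26c1 (133 TPM), Cyp26a1 (120), Rdh10 (37.1), Aldh1a3 (14.9), Dhrs3 (14.3), Aldh1a1 (10.3), Aldh1a2 (8.90) and Cyp26b1 (4.18). Neighbours in the WT order whose libraries interleaved were Cyp26c1 with Cyp26a1, Aldh1a3 with Dhrs3, and Dhrs3 with Aldh1a1. The Aldh1a1 and Aldh1a2 values of WT did not interleave, but the gap between them was small. In KO, Aldh1a3 with Dhrs3 and Aldh1a1 with Cyp26b1 interleaved. Among all genes tested, Cyp26c1 was at or above 84.8% in KO 1 and 83.8% in KO 2, against 91.1% in WT 1 and 92.5% in WT 2. Aldh1a2 was at or above 15.6% of genes in KO 1 and 16.5% in KO 2, against 32.5% in WT 1 and 32.9% in WT 2.

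Set against each other, the synthesis and degradation families showed different patterns. The summed Aldh1a transcripts were 33.4 and 33.3 TPM in KO and 38.2 and 30.0 TPM in WT, so that both KO libraries lay within the WT range. Within that sum the make-up differed. Aldh1a2 supplied 8.66% in KO 1 and 10.2% in KO 2, against 22.4% in WT 1 and 30.8% in WT 2. Aldh1a3 supplied 65.9% in KO 1 and 73.2% in KO 2, against 52.1% in WT 1 and 33.1% in WT 2. For both genes the shares did not overlap between genotypes. The summed Cyp26 transcripts were 198 and 176 TPM in KO and 257 and 258 TPM in WT, and the lower sum in KO came mostly from Cyp26c1.

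**Figure D3:**
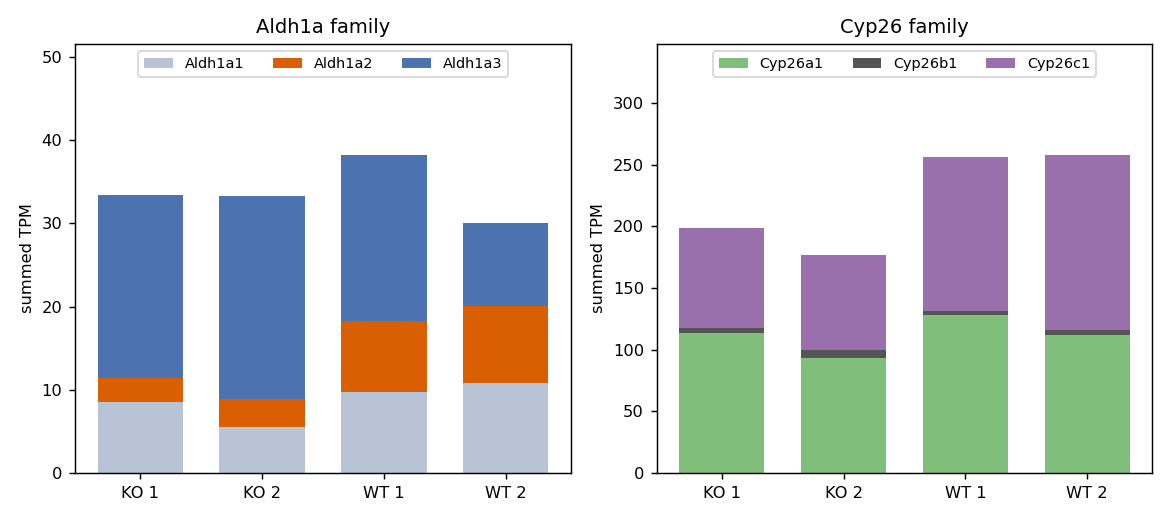
Summed TPM of the 3 Aldh1a genes (left) and the 3 Cyp26 genes (right) in each library, stacked by gene, on axes of different scale. The Aldh1a sums span 30.0 to 38.2 TPM with a smaller Aldh1a2 part in KO, and the Cyp26 sums are 198 and 176 TPM in KO against 257 and 258 TPM in WT.

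Cyp26 transcripts outnumbered Aldh1a transcripts in every library, by 5.93 times in KO 1 and 5.30 times in KO 2, against 6.72 times in WT 1 and 8.58 times in WT 2. On a log2 scale the ratio of Aldh1a to Cyp26 was 0.44 higher in KO, where the pooled SD between libraries of a genotype was 0.19. That direction depends on weighing genes by abundance: with the mean of log2(TPM + 1) over each family a setting in which each gene counts equally, it was -0.11. With Rdh10 and Dhrs3 added to the sums it was 0.36. For the pair of enzymes that interconvert retinol and retinaldehyde, Rdh10 over Dhrs3 was 1.75 in KO 1 and 1.78 in KO 2, against 2.26 in WT 1 and 3.21 in WT 2. These are ratios of transcripts, given as descriptions without a test, and say nothing of enzyme activity or of retinoic acid itself.

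**Figure D4:**
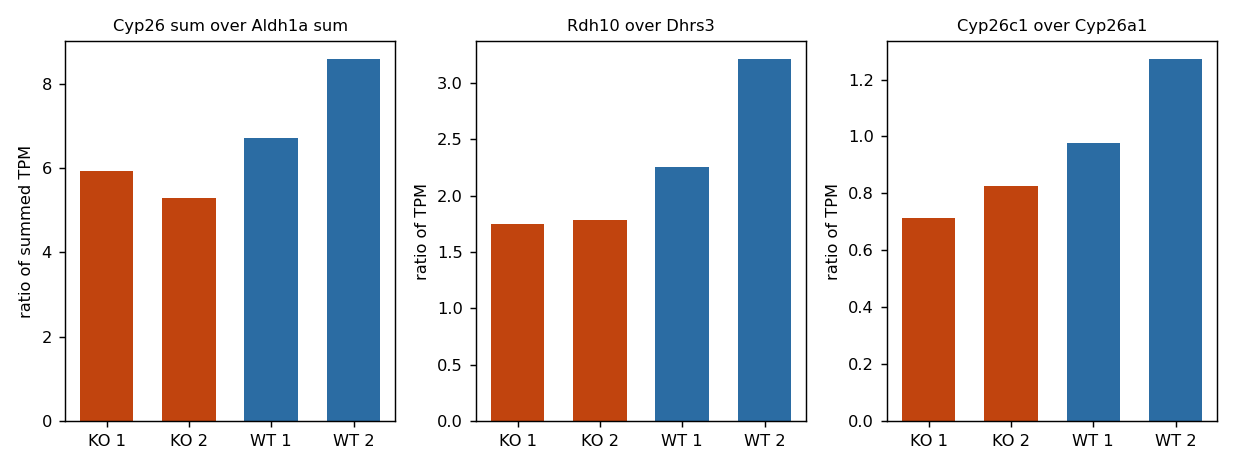
Ratios of TPM within each library for the Cyp26 sum over the Aldh1a sum, Rdh10 over Dhrs3, and Cyp26c1 over Cyp26a1, with KO in orange and WT in blue. In each panel both KO libraries lie below both WT libraries, and WT 2 is the highest.

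Other genes of the pathway were described from lists, of which 0 genes were called in any. Over all genes tested the log2 difference had a median of 0.03. The retinoid receptors were higher in KO for 5 of 6, with a median of 0.12. Rarb, the receptor gene that shares the DR5 element with Cyp26a1, stood at 11.8 and 9.57 TPM in KO and at 7.74 and 5.50 TPM in WT (log2 difference 0.62, SE 0.20; limma adjusted p = 1.00). Rxrg, a partner receptor, stood at 10.8 and 15.2 TPM in KO and at 17.4 and 17.7 TPM in WT (log2 difference -0.42, SE 0.18). The genotypes overlapped for neither gene. Rarb and Cyp26a1 were the 2 listed genes with a DR5 element in their windows. The Cyp26a1 libraries overlapped between genotypes, with a 95% interval from -0.55 to 0.13. Its sign is thus open and cannot be set beside that of Rarb.

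The genes of uptake and binding were lower in KO for 6 of 6 tested, each by little, with a median of -0.14 and a range from -0.20 to -0.04. Crabp2, the binding protein that delivers retinoic acid to nuclear receptors, stood at 342 and 355 TPM in KO and at 387 and 412 TPM in WT. Of the other retinoid enzymes 9 of 18 were tested, 4 higher and 5 lower in KO with a median of -0.01. Retsat, a retinol saturase, stood at 6.90 and 6.98 TPM in KO and at 7.93 and 8.45 TPM in WT, and Rdh5 overlapped between genotypes. Lrat, whose product stores retinol as esters, was below 0.1 TPM in every library.

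The response list held 7 tested genes out of 15, 2 higher and 5 lower in KO, with a median of -0.02. Of these, 4 also stand in the receptor and binding lists, and the 2 with the smallest p were Rarb and Crabp2, on opposite sides of 0. The Hox genes of that list, Cdx1 and Stra8 stayed under the filter. Among the relatives of the Aldh1a genes 3 of 4 were tested. Aldh2, the mitochondrial aldehyde dehydrogenase, stood at 259 and 233 TPM in KO and at 246 and 213 TPM in WT, a log2 difference of 0.10 (SE 0.10).

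**Figure D5:**
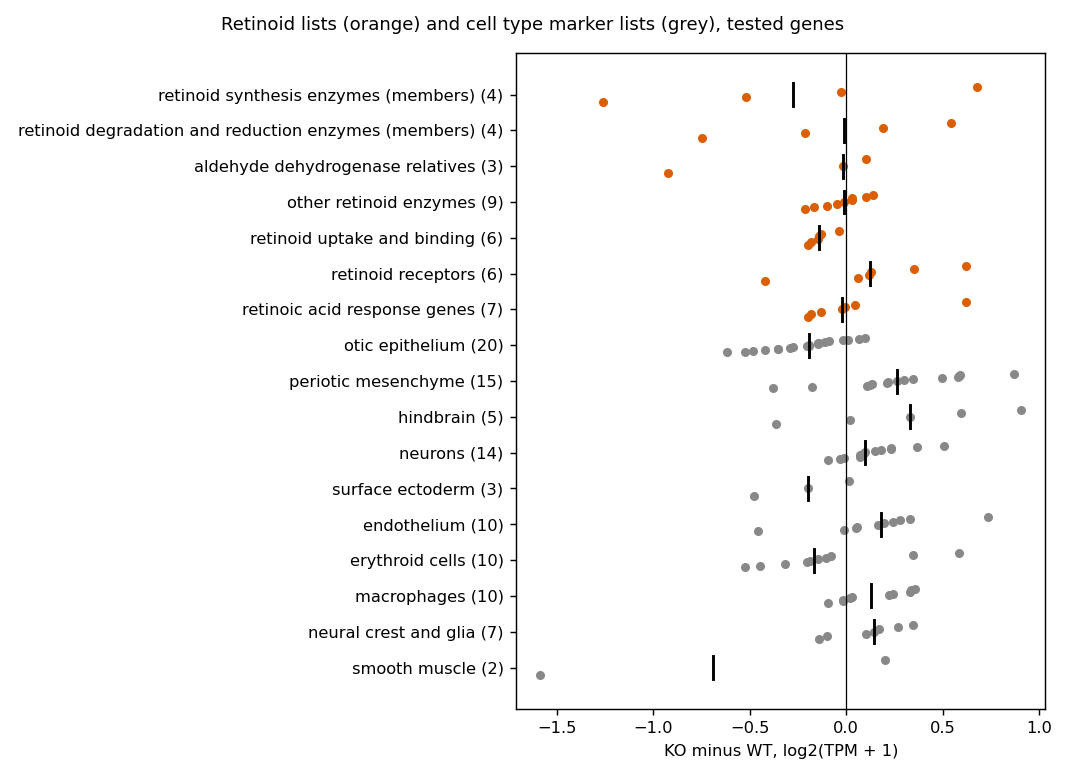
Log2 differences, KO minus WT on the log2(TPM + 1) scale, of the tested genes of each list; each point is a gene, the vertical tick the list median, and the number tested stands in brackets. The retinoid lists have medians from -0.27 to 0.12, with Aldh1a2 at the far left of the synthesis enzymes, and otic epithelium markers lie mostly below 0 and periotic mesenchyme markers mostly above.

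Markers of cell types also stood at different levels in the genotypes. Otic epithelium markers were lower in KO for 17 of 20, with a median of -0.19, and their sums, given above, did not overlap. Oc90 alone made up a large part of those sums, with 561 and 602 TPM in KO and 912 and 724 TPM in WT. None of the 20 was at 0. Periotic mesenchyme markers were higher in KO for 13 of 15 with a median of 0.26, although their sums overlapped. Hindbrain markers, a possible neighbour of the vesicle, summed to 238 and 181 TPM in KO and to 163 and 123 TPM in WT, mostly through Zic1, Zic4 and Hoxa2. The defining hindbrain genes Nkx2-2, Dbx1 and Olig2 were at 0.20 TPM or less throughout.

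With the mean of the otic epithelium markers subtracted in each library, a setting added after seeing the data, the median of all genes moved to 0.25. Beside that median, Aldh1a2 stood at -1.04 and Cyp26c1 at -0.53. The subtraction moves the log2 difference of every gene by the same amount. Whether a sign is kept or turned thus follows from the size of the difference before it and is no check of direction. Aldh1a3 stood at 0.90 and Dhrs3 at 0.76, while Cyp26a1 was at 0.0062 and Rdh10 at 0.19, both turned in sign but below the median. The part of the periotic mesenchyme and hindbrain markers in these differences was not tested.

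The tested genes whose profile over the 4 libraries was closest to that of Aldh1a2, by Euclidean distance of centred log2(TPM + 1), were Fst (distance 0.198), the pseudogene Gm44389 (0.264) and Gm49369 (0.269). Fst, which encodes the activin inhibitor follistatin, stood at 4.39 and 5.24 TPM in KO and at 14.9 and 14.2 TPM in WT. Closest to Cyp26c1 were the pseudogene Gm16221 (0.0989), Prdm1 (0.140) and Myc (0.141). Myc, a growth regulator, stood at 9.99 and 9.32 TPM in KO and at 17.9 and 18.5 TPM in WT, and Prdm1, a transcriptional repressor, at 4.10 and 3.82 TPM in KO and at 6.24 and 6.91 TPM in WT. Over 4 libraries this likeness is a description only.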

How the data were processed

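RNA of 4 otic vesicle libraries was sequenced, 2 of Meis2 mutants and 2 of wild type, grouped by the sample titles. The authors deposited TPM per gene; Salmon 0.9.1 and GRCm38 are named in the submitters' processing notes, with the annotation and the summing of transcripts not given there. Each column summed to 1000000 TPM. Gene IDs were matched by number to GENCODE M21 (GRCm38), which named 34582 of 34866. The 14496 genes averaging 1 TPM or more entered one limma fit (version 3.58.1, R 4.3.3) of log2(TPM + 1) on genotype alone. Variances were moderated with an intensity trend, tests were two-sided, and p-values were adjusted over all genes by Benjamini-Hochberg (threshold 0.05). The fit was run on simulated data with independent libraries and with variances shuffled over genes. Such data hold no intensity trend and no likeness of same-numbered libraries, and the outcome is not given here. SD and SE rest on 2 libraries per genotype; depth is unknown. Members and lists were chosen with earlier results of these data known. In each other retinoid list the 2 tested genes with the smallest p were named, with the 3 nearest profiles of Aldh1a2 and Cyp26c1; 1 gene that this rule names is not reported here, and other genes were named after their values were seen. Promoter windows (250 bases before to 50 after a start) came from RefSeq, and 31-base stretches from GENCODE M21 transcripts. Alternatives were pseudocounts, filters, scalings, no trend, a replicate block, and leaving out each library.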

Additional observations from a re-analysis of the deposited data

How the results depend on the processing

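Genes called between KO and WT numbered 0 with all 4 libraries and between 0 and 10 with 1 library left out: 2 without KO 1 and 10 without KO 2. In each such fit the lone library is assumed to vary like the pair of the other genotype, which alone supplies the spread between libraries. None of them was an enzyme gene, and over all alternatives the lowest adjusted p of an enzyme gene was 0.197, for Aldh1a2, Aldh1a3 and Cyp26c1 with the otic epithelium mean subtracted. That subtraction moved the log2 difference of every gene by the same amount, and 3676 genes then had an unadjusted limma p under 0.05, against 507 in the main fit. Aldh1a1, Aldh1a2, Aldh1a3, Cyp26c1 and Dhrs3 kept their direction in all 13 alternatives, of which the otic subtraction is no check of direction. With a library left out, Rdh10 ranged from -0.19 to 0.14, Cyp26a1 from -0.35 to -0.073 and Cyp26b1 from -0.072 to 0.46. With the otic mean subtracted, Rdh10 was at 0.19 and Cyp26a1 at 0.0062, where the median of all genes was 0.25. Cyp26b1 has a mean below 5 TPM and has no value under that filter. The log2 balance of Aldh1a to Cyp26, 0.44 with all libraries, ranged from 0.26 to 0.61 with 1 left out and was -0.11 as a mean of logs; the latter gives low genes equal weight by construction. The labels do not say that replicate numbers pair the libraries. Deviations of same-numbered libraries correlated at 0.423 across genes, and with the replicate block 0 genes were called, 1178 had an unadjusted limma p under 0.05 against 507 without it, and Aldh1a2 and Cyp26c1 had an adjusted p of 0.41. Cyp26a1 and Dhrs3, whose libraries overlapped between genotypes, each had an unadjusted limma p of 0.020 with that block and an adjusted p of 0.56. Unknown depth limits what can be said of low values such as those of Aldh1a2 and Cyp26b1.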
